A study of Mus musculus with 14 samples.

Results

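The beta 1 and beta 7 integrins of mouse regulatory T cells were described through 10 genes chosen by name, of 30284 genes in the tables. They are the beta chains Itgb1 and Itgb7, the alpha chains of beta 7 integrins Itga4 and Itgae, and the alpha chains Itga1, Itga2, Itga3, Itga5, Itga6 and Itga9, which pair with beta 1. Itga4 joins either beta chain. All 10 had enough reads to be among the 15775 genes tested. The cells were Treg cells from spleen of C57/B6 mice, sorted for Foxp3 and YFP. Control units carried the genotype Tln1wt/wtFoxp3cre/wt and knockout-labelled units the genotype Tln1fl/flFoxp3cre/wt, so the Cre gene, driven by Foxp3 and present on 1 allele, was shared by both groups. There were 4 control units and 3 knockout-labelled units, each the sum of 2 sequenced samples, with 12851425 to 56109143 reads in genes. A library came from 1 to 2 animals, and the labels give neither the age nor which animals stand behind a unit, so p-values measure the spread between units, which may be technical.

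Integrins are heterodimers of an alpha and a beta chain that hold cells to matrix and to other cells. Beta 1 pairs with many alpha chains: alpha 1 and alpha 2 bind collagens, alpha 3 and alpha 6 laminins, alpha 5 and alpha 4 fibronectin, and alpha 9 several matrix proteins. Alpha 4 beta 1 also binds VCAM-1 on endothelium, alpha 4 beta 7 binds MAdCAM-1 on vessels of the gut, and alpha E beta 7 binds E-cadherin on epithelium. Talin-1, the product of Tln1, binds the short cytoplasmic tail of the beta chain and switches the integrin to its active form.

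The talin contact lies in the tails of the beta chains, so the end of each beta coding sequence is shown first. The length was fixed, so a stretch need not hold the whole tail. Each is the last 150 bases of the coding sequence of the transcript with the most reads, stop codon included, 5′ to 3′, from the GENCODE transcripts of GRCm38. Capitals mark the codons of the tail motifs NPxY or NPxF, found in frame; talin binds at the first, and the second lies in the stretch that kindlins bind.
Itgb1: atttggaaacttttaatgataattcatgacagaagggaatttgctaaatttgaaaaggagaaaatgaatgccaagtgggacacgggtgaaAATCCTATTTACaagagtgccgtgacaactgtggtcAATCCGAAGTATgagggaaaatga
Itgb7: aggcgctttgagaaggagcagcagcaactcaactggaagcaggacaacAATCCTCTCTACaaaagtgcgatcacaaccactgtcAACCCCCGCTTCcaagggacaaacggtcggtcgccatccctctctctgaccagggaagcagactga
Both beta chains encode an NPxY motif at the first position. At the second position Itgb1 encodes NPxY and Itgb7 encodes NPxF. The 12 bases of the first motif were identical at 10 positions between Itgb1 and Itgb7, and those of the second motif at 5 of 12.

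The alpha chains carry a conserved GFFKR motif beside the membrane, which takes part in holding the alpha and beta tails together. It is shown in capitals, with 24 bases on either side, for the alpha chains of the beta 7 integrins and for Itga5, the alpha chain of the fibronectin receptor.
Itga4: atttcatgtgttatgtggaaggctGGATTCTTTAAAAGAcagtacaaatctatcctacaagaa
Itgae: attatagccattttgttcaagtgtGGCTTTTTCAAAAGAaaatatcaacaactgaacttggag
Itga5: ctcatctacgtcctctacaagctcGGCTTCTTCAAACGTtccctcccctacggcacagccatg
The motif occurred once in frame in each of these 3 coding sequences, which are 3099, 3504 and 3162 bases long for Itga4, Itgae and Itga5.

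Several facts of the units stand beside every result. Tln1, the targeted gene, had 633.6, 543.0, 847.0 and 648.5 counts per 1000000 reads (CPM) in the controls, and 788.3, 901.3 and 1014 where labelled knockout, always listed from unit 1 on. Its total thus did not fall with the knockout label. A total over the gene does not show whether floxed exons are missing. The 6 genes that mark the sorted cells had reads in all 7 units. Foxp3 stood at 324.1 to 478.5 CPM in control and 369.6 to 514.5 in knockout-labelled units, and the ranges of Cd4 (568.5 to 686.5 against 507.5 to 593) and Ctla4 (370.4 to 898 against 399.6 to 642.4) overlapped too. Il2ra (659.4 to 745.2 against 316.2 to 404.1) and Ikzf2 (862.6 to 1479 against 376.6 to 732.7) fell, and Cd3e was lower without overlap (259.5 to 361.4 against 193.8 to 235.8) but not called. Over all genes tested, 6.52% fell and 14.1% were lower without overlap. Marker genes of other cells were higher in the knockout-labelled units: 8 neutrophil genes summed to 12.7 to 42.7 CPM in control and 278.1 to 1396 in knockout-labelled units, 8 myeloid genes to 8.26 to 120.9 against 187.6 to 530.1, and 8 B cell genes to 27.4 to 74.7 against 147.4 to 333.6. Of these lists 6, 2 and 5 genes rose, against 7.07% of all genes tested. Sums were also higher for 8 dendritic cell genes (4.35 to 16.4 against 44.1 to 72.0 CPM, 4 rose), 6 mast cell and basophil genes (10.3 to 17.1 against 58.9 to 105.1, 5 rose) and 6 erythroid genes (2.12 to 25.9 against 42.1 to 1843, without a call). They overlapped for 8 CD8 T and NK cell genes (30.7 to 40.6 against 34.3 to 85.0, 4 rose), 8 platelet genes (97.8 to 135.6 against 124.5 to 155.8, 2 of 5 tested rose) and 8 endothelial and stromal genes (203.2 to 280.7 against 208.8 to 277.9, 1 of 5 tested rose). The platelet sum is mostly Itgb3, at 87.6 CPM or more in each unit, and the endothelial sum is nearly all Pecam1, at 201.4 or more, so these sums say little of the other genes. Cdh5 (0 to 0.229 against 0.478 to 0.587 CPM), Kdr (0.0762 to 0.375 against 0.485 to 0.819) and Pdgfrb (0 to 0.25 against 1.17 to 2.30) were higher without overlap in the knockout-labelled units, and Pdgfrb rose. Over all genes tested, 16.7% were higher without overlap. Col1a1 of the same list went the other way, with overlap (0.586 to 1.18 against 0.306 to 0.691 CPM), and was not called. The ranges of Pecam1 overlapped as well. No gene of these lists was at 0 in all 7 units. Fold changes followed the GC content of transcripts: the median log2 fold change was -0.31 over 2964 genes with 40 to 45% GC and 0.37 over 3398 genes above 55%. Control unit 3 stood apart from the other controls in this respect: its genes of 40 to 45% GC had a median deviation of -0.05 from the mean over units, against 0.12 to 0.22 in the other control units and -0.05 to -0.29 in the knockout-labelled units.

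Of the 10 members, Itga5 rose and Itgae fell, by edgeR's quasi-likelihood test with Benjamini-Hochberg adjustment over all genes tested at a false discovery rate of 0.05. Across all genes tested, 13.6% were called, 7.07% rising and 6.52% falling, so 2 of 10 members is near the background. At an unadjusted edgeR p under 0.05 there were 5 members, 3 higher and 2 lower, against 32.6% of all genes tested, 17.6% higher and 15.0% lower. DESeq2 called 5 of the 10 members (Itgb1, Itgae, Itga1, Itga5 and Itga9) against 22.5% of all genes, limma-voom the same 5 against 14.3%, a fit with an offset for GC content and length 2 against 7.35%, and a fit with a replicate block 1 against 3.88%. The knockout-labelled and control CPM ranges did not overlap for 4 members, Itga1 and Itga5 higher and Itgb1 and Itgae lower, against 30.8% of all genes tested, 16.7% higher and 14.1% lower. The median log2 fold change of the members was 0.25 and that of all genes tested was 0.06, with 6 members positive and 4 negative. In bulk RNA, fewer cells expressing a gene and less RNA per cell cannot be told apart.

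**Figure D1:**
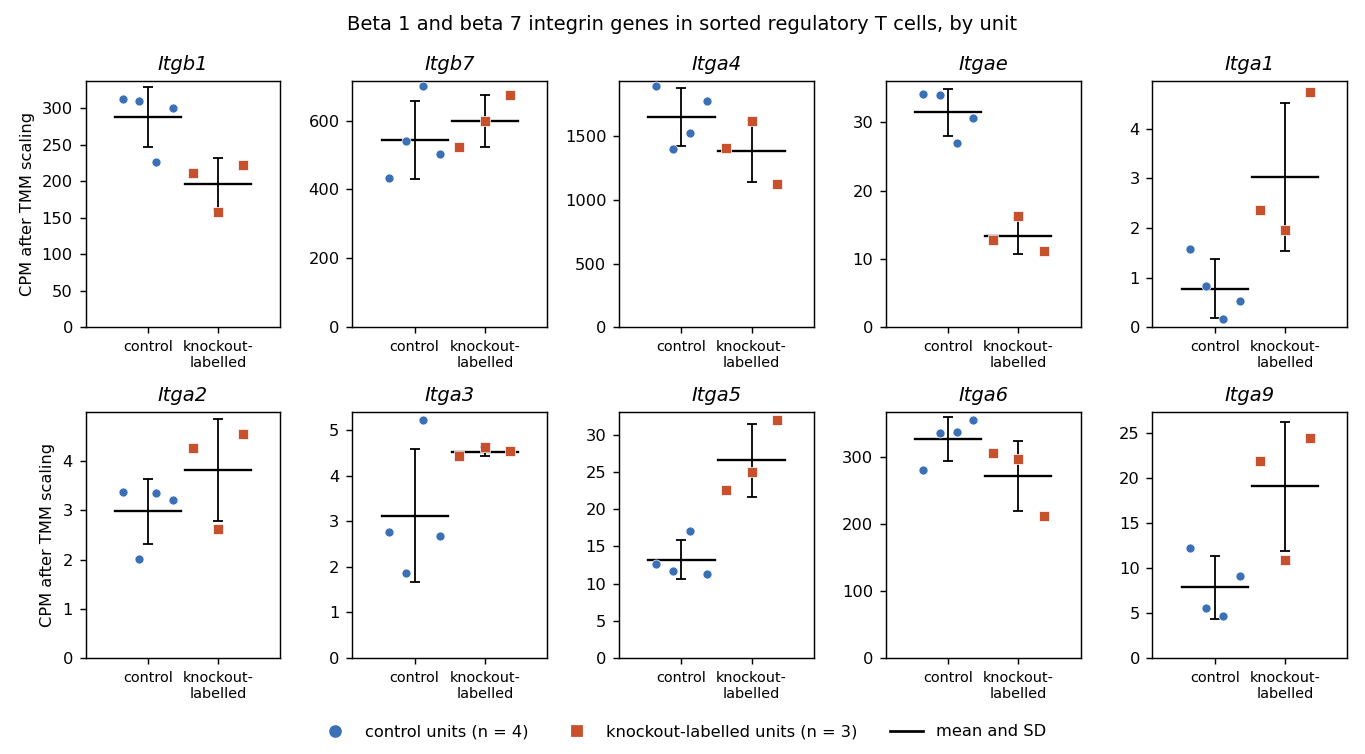
Counts per 1000000 reads (CPM, after TMM scaling) of the 10 member genes, 1 panel a gene with its own axis from 0; points are the 4 control and 3 knockout-labelled units, lines and bars the mean and SD. Itgae and Itgb1 are lower and Itga5 and Itga1 are higher in every knockout-labelled unit than in every control unit; the ranges of the other 6 genes overlap.

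Levels of different genes were compared per length, as TPM, reads per length scaled to 1 total in every unit, summed over a gene's transcripts. In the control units Itgb7 was the highest at 216 ± 50.8 TPM (SD, n = 4), followed by Itga4 at 157 ± 26.6, Itga6 at 100.4 ± 9.66 and Itgb1 at 75.5 ± 10.04. A gap followed to Itgae at 7.37 ± 0.525 TPM, Itga9 at 3.50 ± 1.299 and Itga5 at 2.73 ± 0.765. Itga3, Itga2 and Itga1 averaged 1.12, 0.641 and 0.113 TPM. Neighbours in this order did not overlap between control units except Itga9 with Itga5 and Itga3 with Itga2, although the lowest Itgb7 value, 185.3, and the highest Itga4 value, 185.2, nearly met. Itgb7 exceeded Itga4 in each of the 7 units. The first 4 places and the last 3 were the same in the knockout-labelled units, where Itgae stood 7th instead of 5th, behind Itga9 and Itga5. On coding transcripts alone, Itgb1 stood ahead of Itga6 in 4 of 4 control units, and in 2 of 3 knockout-labelled units, where their ranges overlapped.

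**Figure D2:**
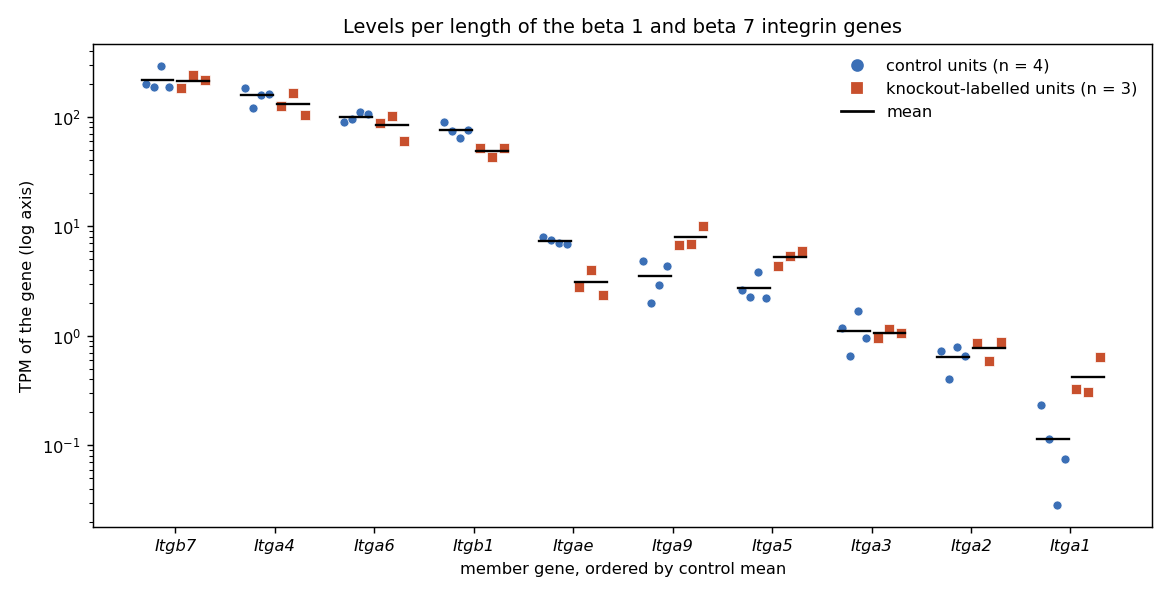
Level per length (gene TPM, log axis) of the 10 members ordered by control mean; points are units and lines are group means. Itgb7, Itga4, Itga6 and Itgb1 lie at or above 42.75 TPM in every unit and the other 6 genes at or below 10.1 TPM.

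Itgb1 lies on chromosome 8 at 128685654 to 128733200 of GRCm38 on the plus strand, and its most abundant transcript, ENSMUST00000090006, has 16 exons. It had 313.2, 310.0, 226.4 and 300.6 CPM in control units and 210.6, 157.2 and 222.0 in knockout-labelled units. All 3 knockout-labelled units were below all 4 controls, with control unit 3 the lowest control and only slightly above knockout-labelled unit 3. The mean was 287.5 ± 41.1 CPM (SD, n = 4) against 196.6 ± 34.6 (n = 3), a log2 fold change of -0.55 ± 0.17 (SE) with a 95% interval of -0.92 to -0.17. This missed the threshold in edgeR's test (adjusted p = 0.0556). Without control unit 3 the same test called Itgb1 (log2 fold change -0.65, adjusted p = 0.0348), as did DESeq2's Wald test on all units (adjusted p = 0.0142). Itgb1 transcripts have 44.9% GC, and with an offset for GC content and length its log2 fold change was -0.32 (edgeR adjusted p = 0.214).

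The transcripts of Itgb1 gave unequal values. The coding transcript ENSMUST00000090006 stood at 70.4, 68.0, 51.0 and 67.0 TPM in control and 38.8, 32.5 and 35.7 in knockout-labelled units. Its difference on the log2(TPM + 1) scale was -0.82 ± 0.17 (SE), just short of the threshold in limma's test over 33272 transcripts (adjusted p = 0.055). A transcript annotated for nonsense-mediated decay, ENSMUST00000124826, took 2.20%, 0.02%, 13.1% and 0.00% of the gene's reads in the control units, and 15.7%, 16.0% and 25.3% of them in the knockout-labelled units. Its share was high in the 4 units with the most reads, control unit 3 among them, and its difference of 2.28 ± 0.83 on the same scale did not pass (limma adjusted p = 0.178). The part of depth in this share was not tested. Without control unit 3, both transcripts passed in limma's test; with all units, 0 of the members' 21 transcripts tested did, against 2.23% of all transcripts, and 8 had an unadjusted limma p under 0.05, against 20.2% of all transcripts.

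Itgb7 lies on chromosome 15 at 102215995 to 102231944 on the minus strand. It had 432.4, 540.2, 701.4 and 503.7 CPM in control units and 524.0, 599.5 and 674.5 in knockout-labelled units, and the groups overlapped, with control unit 3 the highest of all. The log2 fold change was 0.14 ± 0.18 (SE), with a 95% interval of -0.27 to 0.54 (edgeR adjusted p = 0.640), and it turned to -0.22 with the GC and length offset, which was not called either. One coding transcript, ENSMUST00000001327, held 99.2% of its reads. No difference of Itgb7 beyond the spread between units was found, within that interval.

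The balance of the beta chains was read as a ratio of TPM within each unit. Itgb7 to Itgb1 was 2.22, 2.51, 4.52 and 2.51 in control units and 3.51, 5.69 and 4.21 in knockout-labelled units. The ratio was above 2 in every unit, and the groups overlapped only through control unit 3, which exceeded knockout-labelled units 1 and 3.

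**Figure D3:**
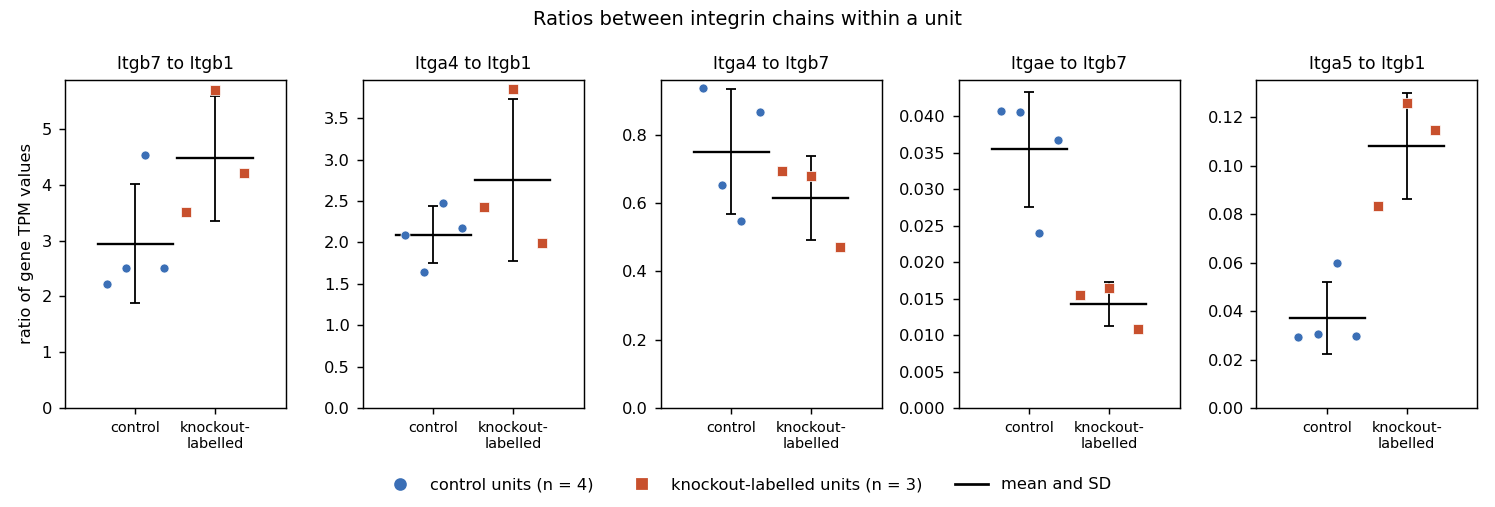
Ratios of gene TPM within a unit, 1 panel a ratio with its own axis from 0; points are units, lines and bars mean and SD. The ratio of Itgae to Itgb7 is lower and that of Itga5 to Itgb1 is higher in every knockout-labelled unit than in every control unit, and the other 3 ratios overlap.

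Itga4, the alpha chain shared by alpha 4 beta 1 and alpha 4 beta 7, lies on chromosome 2 at 79255426 to 79333123 on the plus strand. It had 1896, 1402, 1529 and 1776 CPM in control units and 1409, 1619 and 1128 in knockout-labelled units. The groups overlapped, with a log2 fold change of -0.25 ± 0.19 (SE), a 95% interval of -0.66 to 0.16 and an edgeR adjusted p of 0.377. With the GC and length offset the value was 0.04, at a transcript GC content of 41.1%. Cerkl, an antisense gene, overlaps exons of Itga4, and in these unstranded libraries reads from the overlapping stretch cannot be told apart; 8.39% of Itga4's 31-base words occur in another gene. Itga4 held 57.3% ± 4.39 (SD, n = 4) of the summed TPM of the 8 alpha chains in control and 56.2% ± 1.66 (n = 3) in knockout-labelled units. It therefore made up most of the alpha chain transcripts measured here, in each of the 7 units. The ratio of Itga4 to Itgb7 was 0.938, 0.653, 0.547 and 0.865 in control and 0.693, 0.678 and 0.472 in knockout-labelled units, and that of Itga4 to Itgb1 overlapped too.

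Itgae, the alpha E chain (CD103) that only beta 7 is known to join, lies on chromosome 11 at 73090583 to 73147446 on the plus strand. It had 34.1, 34.0, 26.9 and 30.7 CPM in control units and 12.8, 16.3 and 11.1 in knockout-labelled units. Every knockout-labelled unit lay well below the lowest control. Itgae fell from 31.5 ± 3.41 CPM (SD, n = 4) to 13.4 ± 2.62 (n = 3), 2.35-fold, with a log2 fold change of -1.23 ± 0.19 (SE), a 95% interval of -1.65 to -0.82 and an edgeR adjusted p of 0.00442. It passed in all 7 fits that left out 1 unit, with log2 fold changes of -1.40 to -1.11, and in all 12 other alternatives. With the GC and length offset the value was -1.35, at a transcript GC content of 51.4%.

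Relative to its partner chain, Itgae was lower in every knockout-labelled unit than in every control unit: the ratio of Itgae to Itgb7 TPM was 0.0408, 0.0405, 0.0240 and 0.0367 in control and 0.0154, 0.0165 and 0.0109 in knockout-labelled units. The share of Itgae in the alpha chain TPM was 2.73% ± 0.398 in control and 1.31% ± 0.0979 in knockout-labelled units, without overlap. The coding transcript ENSMUST00000006101 stood at 4.94, 5.18, 5.04 and 4.004 TPM in control and 1.51, 2.36 and 1.59 in knockout-labelled units, a difference of -1.05 on the log2(TPM + 1) scale that limma did not call (adjusted p = 0.072). A retained-intron transcript held 27.8% to 46.0% of the gene's reads. The 6 genes that mark the sorted cells summed to 3380 to 4364 CPM in control and 2195 to 3094 in knockout-labelled units. Of the 6, 2 fell, against 6.52% of all genes tested. The part of these lower values in the fall of Itgae was not tested.

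Itga5, which forms the fibronectin receptor with beta 1, lies on chromosome 15 at 103344286 to 103366763 on the minus strand and has 1 transcript in the tables. It had 12.7, 11.7, 17.0 and 11.4 CPM in control units and 22.6, 25.0 and 32.0 in knockout-labelled units, without overlap. Itga5 rose from 13.2 ± 2.62 CPM (SD, n = 4) to 26.5 ± 4.87 (n = 3), 2.01-fold, with a log2 fold change of 1.01 ± 0.21 (SE), a 95% interval of 0.55 to 1.47 and an edgeR adjusted p of 0.0151. Without control unit 4 the adjusted p was 0.0518, at a log2 fold change of 0.94. Itga5 transcripts have 57.5% GC, and with the GC and length offset the log2 fold change was 0.62 (edgeR adjusted p = 0.043). The ratio of Itga5 to Itgb1 TPM was 0.0293, 0.0304, 0.0597 and 0.0297 in control and 0.0835, 0.126 and 0.115 in knockout-labelled units. It was higher in every knockout-labelled unit, as was the ratio of Itga5 to Itgae, which was 0.299 to 0.550 in control and 1.34 to 2.50 in knockout-labelled units. Itga5 is also expressed by myeloid cells, whose marker sums given above were higher in the same units; their part in the rise was not tested.

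Itga6, a laminin receptor chain, lies on chromosome 2 at 71745616 to 71858416 on the plus strand. It had 280.3, 336.8, 337.5 and 356.0 CPM in control units and 307.0, 296.9 and 212.6 in knockout-labelled units, which overlapped. The log2 fold change was -0.27 ± 0.16 (SE), with a 95% interval of -0.62 to 0.09 (edgeR adjusted p = 0.277). Coding transcript ENSMUST00000028522 held 46.2% of its reads, and a transcript without a coding sequence, ENSMUST00000126787, held 39.9%, so the gene total overstates the coding level. A second coding transcript, ENSMUST00000112101, was at 0.00, 0.00, 0.00 and 0.02 TPM in control units and 0.19, 9.64 and 3.33 in knockout-labelled units, a difference that limma did not call (adjusted p = 0.166).

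Itga9, whose integrin binds tenascin and other matrix proteins, lies on chromosome 9 at 118606690 to 118901003 on the plus strand. It had 12.2, 5.52, 4.62 and 9.07 CPM in control units and 21.9, 10.9 and 24.4 in knockout-labelled units. Knockout-labelled unit 2 lay below control unit 1, and the other 2 knockout-labelled units were above every control. Myeloid marker sums were higher in the knockout-labelled units too, and their part in the Itga9 values was not tested. The log2 fold change of 1.29 ± 0.38 (SE), with a 95% interval of 0.43 to 2.15, missed the threshold in edgeR's test (adjusted p = 0.0527). It passed in that test without control unit 1 (adjusted p = 0.0264) or without knockout-labelled unit 2 (adjusted p = 0.0374), and in DESeq2's Wald test on all units (adjusted p = 0.00741).

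The collagen receptor chains Itga1 and Itga2 lie beside each other on chromosome 13, on the minus strand, at 114953096 to 115101964 and 114833081 to 114932100. Itga1 had 1.57, 0.83, 0.17 and 0.53 CPM in control units and 2.37, 1.96 and 4.73 in knockout-labelled units. These rest on 7 to 20 reads in each control unit and 77 to 267 in each knockout-labelled unit. The groups did not overlap, with a log2 fold change of 2.01 ± 0.65 (SE), a 95% interval of 0.57 to 3.45 and an edgeR adjusted p of 0.0639. The adjusted p was 0.0311 without control unit 1, the highest control. Marker sums of several other cell types were higher in the knockout-labelled units, and their part in the Itga1 values was not tested. Itga1 overlaps exons of the predicted gene Gm49395 on the same strand, and 0.110% of its 31-base words occur in another gene.

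Itga2 had 3.38, 2.00, 3.35 and 3.20 CPM in control units and 4.27, 2.63 and 4.55 in knockout-labelled units, with overlap. Its log2 fold change was 0.36 ± 0.35 (SE), with a 95% interval of -0.42 to 1.13 (edgeR adjusted p = 0.517). Itga3, a laminin receptor chain on chromosome 11 at 95044474 to 95076801 on the minus strand, had 2.75, 1.86, 5.22 and 2.67 CPM in control units and 4.43, 4.62 and 4.53 in knockout-labelled units. Control unit 3 was above every knockout-labelled unit and the other controls below them all. The log2 fold change of Itga3 was 0.52 ± 0.38 (SE), with a 95% interval of -0.31 to 1.36 (edgeR adjusted p = 0.368), and 0.90 without control unit 3 (adjusted p = 0.116). It was 0.17 with the GC and length offset (adjusted p = 0.808) and -0.04 when transcript usage was corrected by effective length. From the first or the second sequenced sample of each unit alone it was 0.81 and 0.22, and none of these fits called it.

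**Figure D4:**
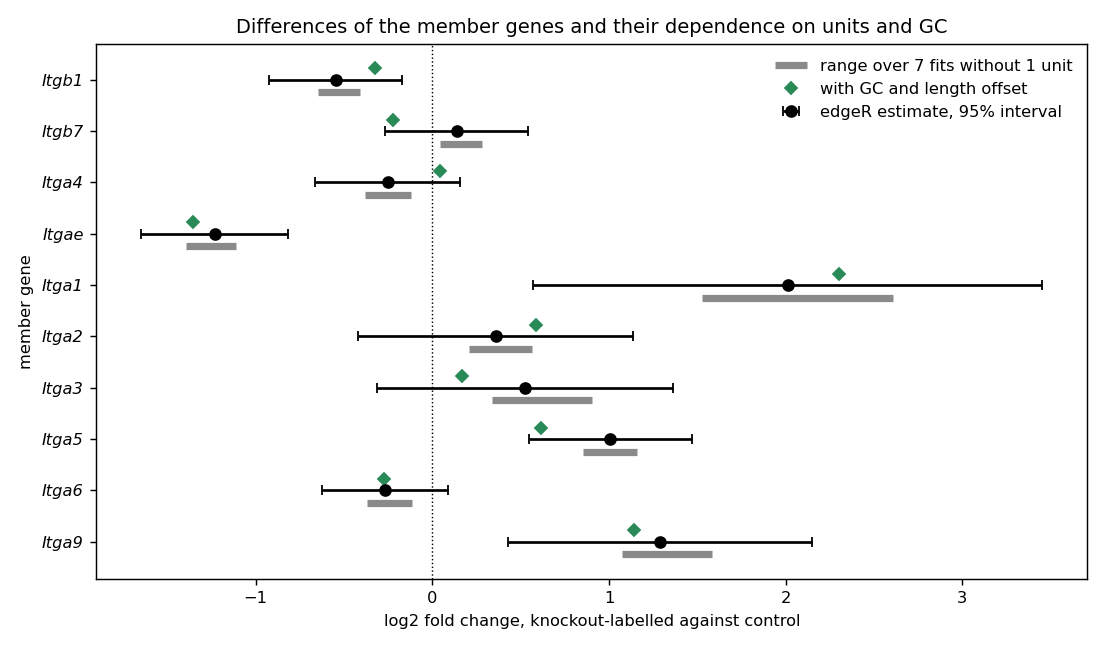
Log2 fold change of each member (knockout-labelled against control, edgeR): black points and lines are the estimate and its 95% interval, grey bars the range over the 7 fits that left out 1 unit, green diamonds the fit with a GC and length offset. The grey bars of all 10 members stay on 1 side of 0, and the diamond crosses 0 for Itgb7 and Itga4.

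The other integrin chains were set beside the members. They are 16 genes, of which Itga7, Itga8, Itga10, Itga11 and Itgav can also join beta 1. Of these 16, 15 were tested, 2 rose and 2 fell, against 7.07% and 6.52% of all genes tested. Their median log2 fold change was 0.15, against 0.06 over all genes tested. Itgav, an alpha chain that joins beta 8 and also beta 1, fell: it had 93.4, 87.3, 78.4 and 92.0 CPM in control units and 55.5, 53.3 and 39.4 in knockout-labelled units (log2 fold change -0.83 ± 0.15 SE, edgeR adjusted p = 0.00850). Itgb8, whose integrin with alpha v activates latent TGF-beta, fell as well, with 34.5 to 79.5 CPM in control and 11.6 to 23.99 in knockout-labelled units (log2 fold change -1.52 ± 0.39 SE, edgeR adjusted p = 0.0451). The call of Itgb8 was kept in 1 of 7 fits that left out 1 unit, the one without control unit 3. Itga2b, the platelet alpha chain, rose, with 3.66 to 4.88 CPM in control and 11 to 15.2 in knockout-labelled units (log2 fold change 1.68 ± 0.24 SE, edgeR adjusted p = 0.00348). When transcript usage was corrected by effective length its log2 fold change was 0.66 (adjusted p = 0.293). The platelet and megakaryocyte list holds Itga2b itself, and its part in this was not tested. Itgam, a myeloid chain named after its values were seen, was the other that rose. It had 0.236, 0, 1.77 and 0.457 CPM in control units and 13.8, 8.93 and 15.9 in knockout-labelled units. Itgam reached the level the count filter asks for in all knockout-labelled units and in fewer than 3 control units. Its call is thus partly set by the filter, and the part of myeloid cells in it was not tested.

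Ligands of these integrins were mostly low in the sorted cells. Of 23 ligand genes 14 were tested. In edgeR's test 3 rose and 0 fell, against 7.07% and 6.52% of all genes tested. At an unadjusted edgeR p under 0.05, 6 were higher and 0 lower, against 17.6% and 15.0% of all genes tested. The 9 ligand genes not tested had too few reads. Nid1, Col1a2 and Lama3 reached the level the count filter asks for in all knockout-labelled units and in fewer than 3 control units, so these counts are partly set by the filter and nothing is read from the direction over the list. Fn1, which encodes fibronectin, a ligand of alpha 5 beta 1 and alpha 4 beta 1, had 5.51, 2.10, 2.02 and 2.67 CPM in control units and 28.2, 28.6 and 48.9 in knockout-labelled units (log2 fold change 3.54 ± 0.39 SE, edgeR adjusted p = 0.00143). Cdh1, which encodes E-cadherin, the ligand of alpha E beta 7, had 0.944, 0.586, 0.649 and 0.914 CPM in control units and 6.20, 5.61 and 4.73 in knockout-labelled units (log2 fold change 2.85 ± 0.35 SE, edgeR adjusted p = 0.00161). Thbs1, a matrix glycoprotein, had 0.195 to 1.07 CPM in control and 3.16 to 5.03 in knockout-labelled units (log2 fold change 2.90 ± 0.55 SE, edgeR adjusted p = 0.0108). Fn1, Cdh1 and Thbs1 passed in all 7 fits that left out 1 unit. The part of other cells, whose markers were higher in the same units, was not tested. Vcam1, a ligand of alpha 4 beta 1 that macrophages also make, spread widely, at 92.7, 0.489, 0.924 and 10.2 CPM in control and 169.0, 44.1 and 200.7 in knockout-labelled units, and was not called (edgeR adjusted p = 0.402). Within each group the order of the units was that of the myeloid marker sums, which were 120.9, 8.26, 9.42 and 28.95 CPM in the control units, and 444.7, 187.6 and 530.1 in the knockout-labelled ones. The neutrophil marker sums had the same order, at 42.7, 12.7, 18.4 and 34.8 CPM in control and 468.2, 278.1 and 1396 in knockout-labelled units. The part of other cells in the Vcam1 values was not tested. Madcam1 had 2 reads over all control and 12 over all knockout-labelled units and was not tested.

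Among 23 genes whose products bind integrin tails or activate integrins, 22 were tested, with a median log2 fold change of 0.10. Of these, 2 rose and 2 fell, against 7.07% and 6.52% of all genes tested. Tns3, a tensin, rose, with 0.924 to 5.43 CPM in control and 14.8 to 34.1 in knockout-labelled units (log2 fold change 3.17 ± 0.60 SE, edgeR adjusted p = 0.0182). The adjusted p of Tns3 was 0.0593 without control unit 2 and 0.0639 without control unit 4. Tns3 was highest in control unit 1 and in knockout-labelled unit 3, as were the marker sums of myeloid cells, neutrophils, mast cells and basophils, and erythroid cells. The part of other cells in its rise was not tested. The GTPase gene Rap1a, whose product recruits talin, fell, with 145.1 to 256.0 CPM in control and 96.7 to 145.1 in knockout-labelled units (log2 fold change -0.78 ± 0.20 SE, edgeR adjusted p = 0.0344). Lims1, a partner of integrin-linked kinase, fell from a range of 148.2 to 185.8 CPM to one of 106.2 to 131.3 (log2 fold change -0.51 ± 0.13 SE, edgeR adjusted p = 0.0343). Rap1a and Lims1 have transcripts of 38.9% and 40.7% GC; neither was called with the GC and length offset, at -0.23 and -0.08, and Lims1 was at -0.12 when transcript usage was corrected by effective length (adjusted p = 0.579). Each kept its call in 2 of 7 fits that left out 1 unit, those without control unit 3 or knockout-labelled unit 1. Flna, an actin crosslinker that competes with talin for beta tails, was the other that rose and is named after its values were seen. Tln1 itself was not called, with 0.43 ± 0.18 SE on the log2 scale (edgeR adjusted p = 0.126), and stood at -0.0022 with the GC and length offset. Fermt3, the kindlin of blood cells, had 0.35 ± 0.17 (edgeR adjusted p = 0.191), and Itgb1bp1, an antagonist of talin at the beta 1 tail, had 0.10 ± 0.17 (edgeR adjusted p = 0.737).

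Of 14 trafficking and processing genes, 13 were tested. Of these, 1 rose and 2 fell, against 7.07% and 6.52% of all genes tested. Rab4a, a GTPase of fast recycling, rose, with 5.82 to 9.81 CPM in control and 14.1 to 18.7 in knockout-labelled units (log2 fold change 1.00 ± 0.24 SE, edgeR adjusted p = 0.0245). Rab21, which binds alpha tails and carries beta 1 integrins inward, fell from a range of 68.7 to 102.9 CPM to one of 44.3 to 63.2 (log2 fold change -0.69 ± 0.17 SE, edgeR adjusted p = 0.0278). Arf6, a GTPase of beta 1 recycling, fell from a range of 225.6 to 321.4 CPM to one of 164.6 to 189.0 (log2 fold change -0.68 ± 0.15 SE, edgeR adjusted p = 0.0204). Leaving out control unit 2, control unit 4 or knockout-labelled unit 2 lifted the edgeR adjusted p of each of these 3 genes to 0.05 or above, at most 0.0808. Leaving out knockout-labelled unit 3 did so for Rab4a (0.0703) and Rab21 (0.0814), and the GC and length offset for Rab21 (0.0973).

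Of 11 membrane partners, 2 rose and 1 fell, against 7.07% and 6.52% of all genes tested. The tetraspanin gene Cd63 rose from 0.157 CPM or less in control to 3.22 to 9.97 (edgeR adjusted p = 0.00125). No control unit reached the level the count filter asks for. Cd63 was therefore tested only through the knockout-labelled units, and its call is partly set by the filter. Slc3a2, the CD98 heavy chain, which binds beta 1 tails, rose from a range of 72.8 to 85.7 CPM to one of 113.7 to 166.1 (log2 fold change 0.73 ± 0.15 SE, edgeR adjusted p = 0.0152), but not past the threshold without control unit 4 (adjusted p = 0.0502) or with the GC and length offset (0.0613). The tetraspanin gene Cd53 fell from a range of 649.2 to 917.0 CPM to one of 372.3 to 581.0 (log2 fold change -0.66 ± 0.19 SE, edgeR adjusted p = 0.0485), a call kept in 2 of 7 fits that left out 1 unit, those without control unit 3 or knockout-labelled unit 1, and not with the GC and length offset.

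TGF-beta, retinoic acid and Runx factors are known to set Itgae, Itgb7 or Itga4, and 19 such genes were tested. Of these, 2 rose and 1 fell, against 7.07% and 6.52% of all genes tested, and the median log2 fold change was 0.09. Cbfb, the partner subunit of all Runx proteins, fell from a range of 187.2 to 260.7 CPM to one of 104.4 to 153.4 (log2 fold change -0.83 ± 0.17 SE, edgeR adjusted p = 0.0152). Its transcripts have 38.4% GC, and its log2 fold change was -0.28 with the GC and length offset (edgeR adjusted p = 0.184). Without control unit 4 the adjusted p of Cbfb was 0.0518. Tgfbr3 rose by 0.53 ± 0.15 on the log2 scale (edgeR adjusted p = 0.0468) and the retinoid receptor gene Rxrb by 0.50 ± 0.14 (edgeR adjusted p = 0.0423); the first kept its call only in the fit without knockout-labelled unit 3, and the second only in those without control unit 3 or without unit 1 of the knockout-labelled group, among the 7 fits that left out 1 unit. Neither was called with the GC and length offset. The signalling receptors were not called: the log2 fold change of Tgfbr1 was -0.20 ± 0.18 SE (adjusted p = 0.477 by edgeR), that of Tgfbr2 -0.05 ± 0.14 (0.840), and that of Runx3, a known regulator of Itgae, 0.39 ± 0.15 (0.0964).

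Homing receptors used beside alpha 4 beta 7 and alpha E beta 7 gave 0 calls among 10 tested by edgeR's test, DESeq2 and limma-voom. These called 13.6%, 22.5% and 14.3% of all genes tested. At an unadjusted edgeR p under 0.05, 2 homing receptors were higher and 0 lower, against 17.6% and 15.0% of all genes tested. One of the 2, Ccr10, is named after its values were seen. Ccr10 reached the level the count filter asks for in all knockout-labelled units and in fewer than 3 control units. The count of 2 is thus partly set by the filter, and nothing is read from its direction. Ccr9, the receptor for the small intestinal chemokine CCL25, had 23.9 to 38.0 CPM in control and 21.2 to 36.7 in knockout-labelled units (log2 fold change -0.03 ± 0.22 SE, adjusted p = 0.941). Gpr15, a receptor for homing to the large intestine, had 6.69, 6.25, 6.92 and 7.01 CPM in control units and 2.63, 1.66 and 7.63 in knockout-labelled units. Knockout-labelled units 1 and 2 were below all controls and unit 3 above them. With all units its log2 fold change was -0.75 ± 0.47 (SE) and not called (edgeR adjusted p = 0.290). It was -0.52 without knockout-labelled unit 1 (adjusted p = 0.558), -0.39 without unit 2 (adjusted p = 0.594) and -1.64 without unit 3 (adjusted p = 0.0232), so the call rests on leaving out that unit.

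**Figure D5:**
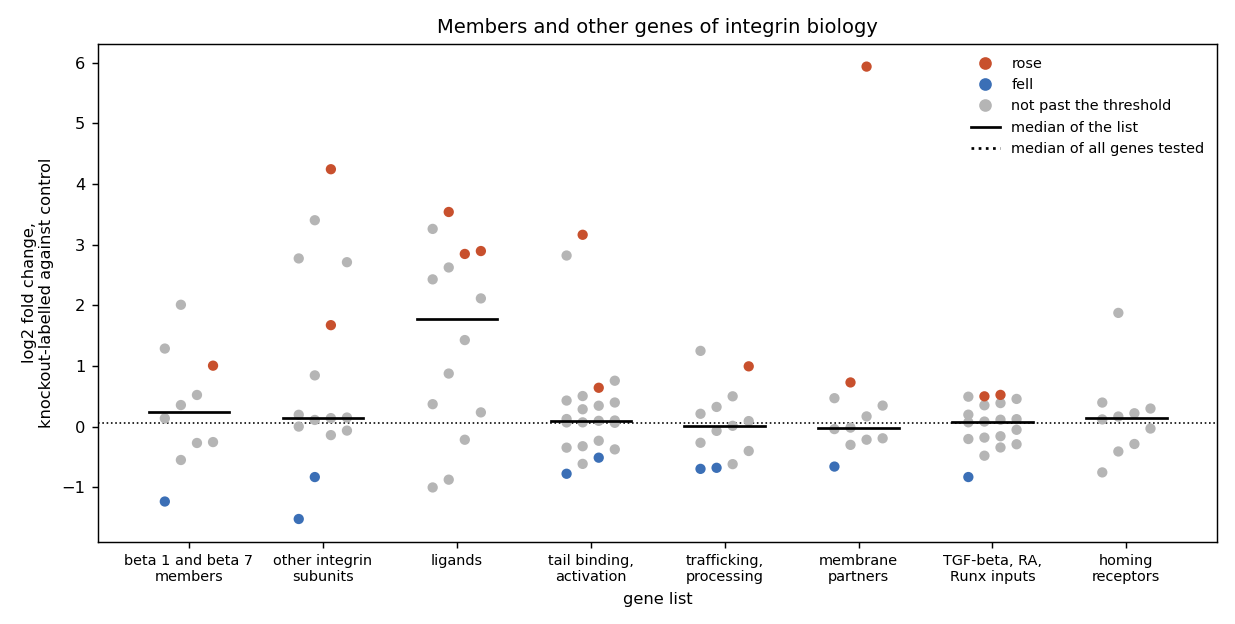
Log2 fold change (knockout-labelled against control, edgeR) of the members and of 7 lists of other genes of integrin biology. Each point is a gene, coloured by its call, solid lines are list medians and the dotted line the median of all genes tested, 0.06. The highest single value is that of Cd63, 5.94, which rests on few control reads; 9 of the 23 ligand genes were not tested, so their points are those that passed the count filter.

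The genes whose CPM varied most like Itgb1, Itgb7, Itga4 and Itgae over the 7 units were taken from 8636 genes with a mean of at least 10 CPM, by Pearson's r of log2 CPM. For Itgb1 they were Gspt1 (0.989), Cops2 (0.989) and Hprt (0.985), and for Itgae Tmtc4 (0.998), Tardbp (0.993) and Gucy1a1 (0.991). For Itgb7 they were Wdr6 (0.979), Keap1 (0.978) and Capn1 (0.975), and for Itga4 Wdr66 (0.995), Gabpb2 (0.995) and Tmem245 (0.987). These values describe 7 points that share library, depth, GC pattern and the split between groups.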

How the data were processed

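RNA was sequenced with an unstranded kit, per the labels' protocols. The authors deposited unnormalized expected counts, that is kallisto's estimated counts of reads for each transcript, on the build GRCm38 per the submitters' processing notes. Which kallisto version and annotation release served is not given in the sources used here. TPM values deposited by the authors were not used as such: TPM was recomputed per unit from the summed estimated counts and the effective lengths, which are other columns of the deposited tables. The 88198 transcripts were matched by identifier to GENCODE, except 2079 that held 1.17% to 1.28% of the reads and were left out.

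The members and the 7 lists of other genes and 10 lists of cell markers were chosen with earlier results of these data known. Estimated counts were summed per gene, both sequenced samples of a unit were added, because no label says that they are separate animals, and sums were rounded. Genes were tested with edgeR 4.0.16 (TMM, filterByExpr, robust quasi-likelihood fit, group as the only term) in R 4.3.3, and transcripts averaging 1 TPM or more with limma 3.58.1 on log2(TPM + 1), all with Benjamini-Hochberg adjustment at 0.05. Each group value rests on 4 control or 3 knockout-labelled units, and intervals are at 95%. In simulated counts on 15585 genes, the test recovered 25.3% of 2-fold and 65.3% of 4-fold changes, and 8.25% of its 97 calls were unchanged genes. The simulation held far fewer changed genes than the 2144 called in the data, which makes its adjusted threshold stricter. These shares therefore need not hold for the real comparison. A missed threshold still says little about smaller changes.

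Named genes were the members, up to 3 called genes with the smallest adjusted p of each list, and 11 genes given whatever their result. Alternatives were other scalings and filters, DESeq2 1.42.0, limma-voom, an offset for GC content and length, an offset for effective length, each sequenced sample of a unit alone, a replicate block, and each unit left out. Positions count from 1, and shared sequence was measured in 31-base words.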

Additional observations from a re-analysis of the deposited data

Results flagged for a closer look

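A total of 37 genes, the members and the other named genes, were screened for a control unit far from the other 3, and chance alone marks about 1 in 20 groups. In 3 of them the gap from 1 unit to its neighbour, as a part of the whole control range, exceeded Dixon's 95% critical value for 4 samples. Itgb1 was lowest in control unit 3, at 226.4 CPM, with a gap of 0.855 of the range. Itga2 was lowest in control unit 2, at 2.003 CPM, with a gap of 0.868 of the range, on few reads. Vcam1 was highest in control unit 1, at 92.73 CPM, with a gap of 0.895 of the range. The marker sums of myeloid, neutrophil, B, dendritic, mast and basophil, erythroid and regulatory T cells were highest in the same control unit. Their part in the Vcam1 value was not tested.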

How the results depend on the processing

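Itgae kept its direction and its call under all 7 fits that left out 1 unit and all 12 other alternatives (adjusted p of 1.57e-08 to 0.0241 over the latter), and Itga5 under 6 of 7 and 11 of 12. The number of genes called was 2144; it was 3546 with DESeq2's Wald test and 1159 with the GC and length offset, and 758 to 1905 when 1 unit was left out. Of the members 2 were called; 4 were called without a filter beyond 1 read, 5 with DESeq2's Wald test, 5 with limma-voom, and 1 to 4 when 1 unit was left out (1 without control unit 4, 4 without control unit 1). Of the 104 genes tested in the 7 lists of other genes, 20 were called, against 13.6% of all genes tested. With the GC and length offset 11 were called, against 7.35% of all genes. When 1 unit was left out, 6 to 24 were called. There were 6 without control unit 4, 9 without control unit 2 or knockout-labelled unit 2, and 12 without knockout-labelled unit 3. Of the member transcripts 0 to 2 were called when 1 unit was left out, with 2 only without control unit 3. The share of Itga4 in the alpha chain TPM of the control units, 57.3%, was 74.4% over coding transcripts, because noncoding transcripts of Itga6 are then left out.

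With the GC and length offset the log2 fold change turned to -0.22 for Itgb7, 0.045 for Itga4, 0.19 for Ccr9, -0.012 for Fermt3, 0.18 for Tgfbr1 and -0.0022 for Tln1. With the effective-length offset it turned to -0.040 for Itga3 and -0.40 for Tln1. When 1 unit was left out, Ccr9 ranged from -0.26 to 0.15 (0.13 without control unit 3 and 0.15 without knockout-labelled unit 3), Tgfbr2 from -0.14 to 0.056 (the latter without knockout-labelled unit 3) and Itgb1bp1 from -0.017 (without knockout-labelled unit 1) to 0.20. None of these values was called.

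The replicate numbers of both groups did not pair the units: deviations from the group means of same-numbered units correlated at -0.295 to 0.089. A replicate block gave 612 calls over all genes, 1 among the members (Itgae, while Itga5 had 0.95, edgeR adjusted p = 0.0630) and 6 among the genes of the other lists. Depth limits Itga1 most, with 7 reads in each of 2 control units.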
